A study of Mus musculus with 18 samples.

Results

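The genes described here are 34 genes of translation termination, nonsense-mediated decay (NMD) and small nucleolar RNA (snoRNA) hosting, taken by name from the 31643 genes of a read-count table of the mouse GC1spg cell line. They comprise 5 genes of termination and ribosome rescue, 4 UPF factors, 5 SMG factors, 5 exon junction complex genes and 15 noncoding hosts of snoRNAs. All 34 were found, and 33 passed the filter on low counts. The study exposed GC1spg cells, a mouse line used as a model of spermatogonia, to the alkylating drug busulfan (Bu) or to its vehicle DMSO. Poly(A) RNA was sequenced from 18 libraries. These were 5 of sigfp cells with DMSO (siGFP DMSO), 4 of sigfp cells with Busulfan (siGFP Bu), 5 of siTGR5 cells with DMSO (siTGR5 DMSO) and 4 of siTGR5 cells with Busulfan (siTGR5 Bu). The methods of the study give 200 µM Bu for 24 h after starvation for GC1spg cells in general, do not mention the siRNAs, and give no dose or time for siTGR5 cells. The labels do not name the siRNA sequences, the transfection or separate cultures, so p-values measure the spread between these libraries, which may be technical.

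When a ribosome reaches a stop codon, release factors free the finished protein and recycling factors split the ribosome. If the stop codon lies upstream of an exon junction complex, a mark that splicing leaves on the mRNA, the helicase UPF1 and its UPF and SMG partners direct the mRNA to decay. Many noncoding snoRNA hosts carry short reading frames and are known targets of this decay, while the snoRNAs in their introns are trimmed out and guide chemical modification of ribosomal RNA.

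The libraries held between 24745523 and 49638166 counted reads, and levels are given as CPM (reads of a gene scaled to a fixed library size) after TMM normalisation. Transcripts of rod photoreceptors were present in 7 of the 18 libraries (at least 4 of 18 rod markers at 1 CPM or more). Among siGFP cells these were Bu replicates 2 and 4 with DMSO replicates 1 and 5, and among siTGR5 cells Bu replicates 1 and 3 with DMSO replicate 4. The summed level of the 18 markers ran from 24.7 to 133 CPM in siGFP DMSO, 25.4 to 68.5 in siGFP Bu, 21.9 to 68.6 in siTGR5 DMSO and 23.3 to 38.2 in siTGR5 Bu, and its part in the results was not tested. For each comparison the count of called members is therefore also given without these libraries, a choice made after the data were seen, whereas counts of members that did not overlap and counts for other lists include them. Left were siGFP DMSO replicates 2, 3 and 4 and siGFP Bu replicates 1 and 3. In siTGR5 cells DMSO replicates 1, 2, 3 and 5 and Bu replicates 2 and 4 were left. With these fewer libraries, fewer of all genes were called in every comparison. Whether a lost call reflects rod transcripts or the smaller number of libraries was not tested. Of 16 spermatogonial markers, 15 were in the table and 5 passed the filter. Among markers of undifferentiated spermatogonia, Gfra1 stood at 28.8 ± 0.554 CPM (SD, n = 5) and Id4 at 4.63 to 5.51 CPM in siGFP DMSO. Zbtb16 and Nanos2, also markers of these cells, were at 0 in all 5 siGFP DMSO libraries. Of 10 Sertoli and Leydig markers 6 were in the table, and their sum, mostly reads of Wt1, was 246 to 279.8 CPM in siGFP DMSO and 214 to 229.6 CPM in siGFP Bu, with its part likewise not tested. Gpbar1, the gene of the receptor TGR5, had 4 to 40 reads per library, and its log2 fold change between siTGR5 and siGFP was -0.99 in DMSO (edgeR adjusted p = 0.0135) and -0.38 under Bu (edgeR adjusted p = 0.425), with overlapping libraries in both.

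Per kilobase of annotated exon, the members covered a wide range of levels in siGFP DMSO (CPM per kb, mean ± SD, n = 5). Etf1, the release factor that reads stop codons, was the highest of the 33 with an annotated length at 75.8 ± 3.54, followed by the exon junction protein gene Magoh at 64.9 ± 3.94. Eif4a3, the helicase that anchors the same complex, reached 52.0 ± 1.82 and the noncoding host Snhg18 47.1 ± 2.97. The UPF1 gene stood at 20.2 ± 0.491. At the low end, Gspt2 had 2.90 ± 0.147 and Snhg17 2.55 ± 0.235. The length used joins all annotated exons of a gene, 7052 bases for Snhg17, whose transcripts have a median length of 1046 bases. The low place of Snhg17 therefore depends on this length. Snhg14, the long imprinted host known from neurons, in which 208 snoRNAs are annotated, had at most 0.216 CPM in any siGFP DMSO library, did not pass the filter and was not tested. Snhg4 has no entry in the annotation used and no length.

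To see how Bu affected these genes, Bu was compared with DMSO within siGFP cells. With Bu, the mRNAs of Smg8 and of the exon junction gene Magoh were higher, that of Upf1 was lower, and the noncoding hosts split into higher (Snhg5) and lower (Snhg17, Snhg18) genes. Abce1, Rbm8a, Eif4a3, Snhg8 and Epb41l4aos were also called higher and Snhg20 lower, but each lost its call under some alternatives. Of 33 tested members, 8 were called higher and 4 lower (edgeR quasi-likelihood test, adjusted p under 0.05), against 28.1% of all 14304 genes tested in both directions (14.3% higher and 13.8% lower). The groups did not overlap for 7 members, against 23.2% of all genes. The median log2 fold change of the members was 0.07, against 0.00 over all genes. In siTGR5 cells, 10 members were called higher and 3 lower, against 30.7% of the 14372 genes tested there (15.5% higher and 15.2% lower). The groups did not overlap for 8 members, against 24.8% of all genes, and the members' median was 0.09. Without the libraries that held rod transcripts, 4 members were higher and 4 lower in siGFP cells, all 8 among the 12, and 6 were higher and 1 lower in siTGR5 cells, all 7 among the 13. Of all 14425 genes tested in siGFP cells without them, 1474 were higher and 1487 lower. In siTGR5 cells these were 1286 and 1374 of 14645. Because RNA of whole cultures was measured, fewer cells of a type and less RNA per cell cannot be told apart.

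**Figure D1:**
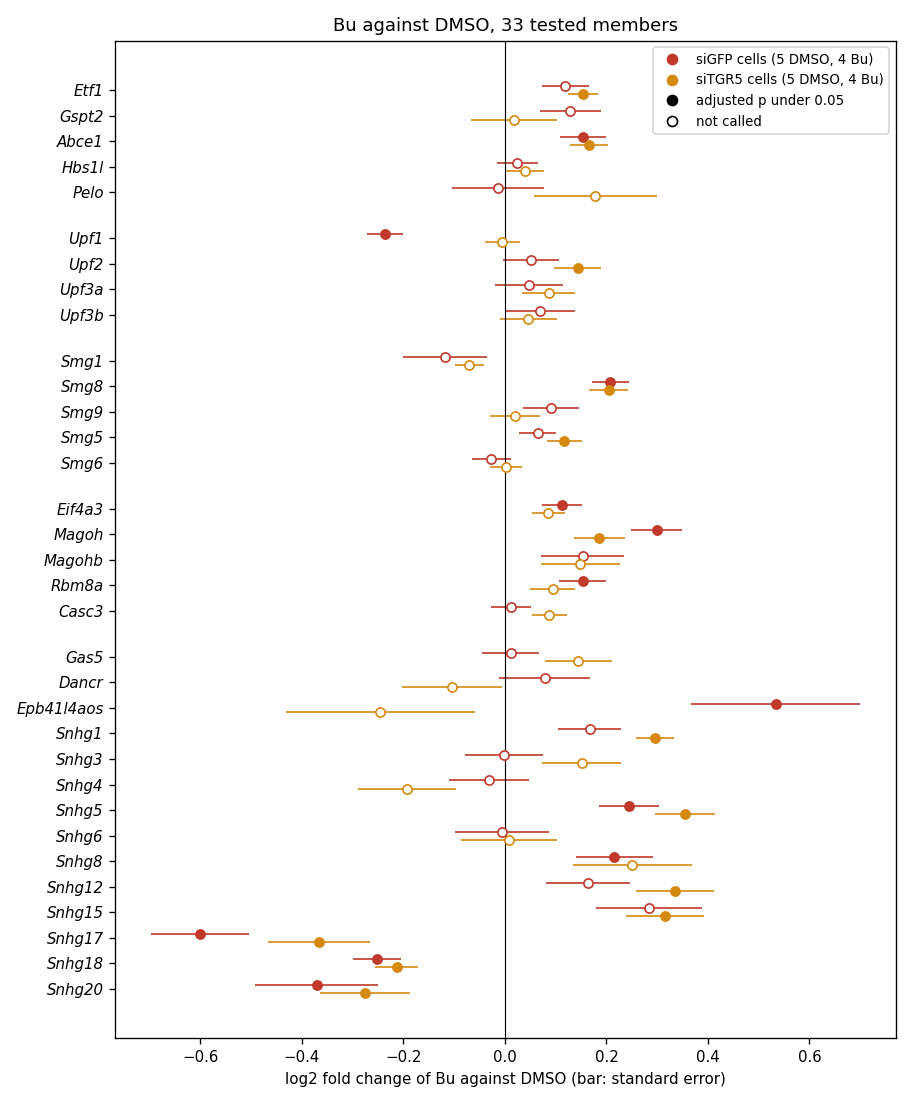
Log2 fold change of Bu against DMSO (horizontal axis, bars are standard errors) for the 33 tested members, ordered by role, in siGFP cells (red) and siTGR5 cells (orange). Filled points passed an adjusted p of 0.05, and Upf1 is at -0.24 in siGFP cells but at 0.00 in siTGR5 cells, while Snhg17, Snhg18 and Snhg20 are negative in both.

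Among the 5 genes of termination and rescue, 1 was called in siGFP cells, against 28.1% of all genes. It was Abce1, whose ATPase splits the ribosome after termination. Abce1 was at 143, 133, 127, 141 and 147 CPM in the 5 siGFP DMSO libraries and at 158, 143, 152 and 155 CPM in the 4 siGFP Bu libraries. The Bu libraries were mostly higher, with overlap between the groups. The log2 fold change was 0.15 ± 0.05 (SE) (edgeR adjusted p = 0.0216). In siTGR5 cells Abce1 rose from 135, 130.0, 139.9, 138 and 143 CPM to 143, 151, 154 and 162 CPM, with all Bu libraries above all DMSO libraries, by 0.17 ± 0.04 (SE) (edgeR adjusted p = 0.00302). Etf1 followed the same direction, at 281 ± 13.1 CPM in siGFP DMSO and 302 ± 17.6 CPM in siGFP Bu (SD, n = 5 and n = 4), and was called only in the siTGR5 comparison (0.15 ± 0.03 (SE), edgeR adjusted p = 0.000666, against 0.12 ± 0.05 (SE), edgeR adjusted p = 0.0642, in siGFP cells). The difference between these Etf1 effects was 0.04 (edgeR adjusted p = 0.845). Gspt2, a GTPase partner of the release factor, and Pelo and Hbs1l, which together open ribosomes stalled without a stop codon, were called in neither cell group, with log2 fold changes between -0.01 and 0.18. Reads of Gspt2 may be shared with its close copy Gspt1, and 46.2% of the exon bases of Pelo are also exon of Gm49395 on the same strand, so both values are uncertain. The Abce1 call in siGFP cells was lost on leaving out any of 5 single libraries (replicate 2, 3 or 4 of DMSO, 1 or 4 of Bu), with values of 0.12 to 0.18 over all single omissions, and stood at 0.22 (edgeR adjusted p = 0.00794) without the libraries that held rod transcripts.

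Upf1 was the member with the smallest p in siGFP cells. It was at 94.8, 93.9, 95.7, 91.3 and 90.4 CPM in siGFP DMSO and at 79.4, 77.4, 77.3 and 79.1 CPM in siGFP Bu. Every Bu library was below every DMSO library, and the spread within each group was small. The fall was 0.24 on the log2 scale (SE 0.04, edgeR adjusted p = 0.000194), and an exact two-sided permutation test over libraries gave p = 0.00794, the smallest that 5 against 4 allows. This permutation value restates the lack of overlap, which 23.2% of all genes showed in that comparison. In siTGR5 cells Upf1 was at 92.7, 97.3, 100.3, 97.1 and 101 CPM with DMSO and at 101, 96.8, 93.1 and 95.4 CPM with Bu. These groups overlapped, and the log2 fold change was 0.00 ± 0.03 (SE) (edgeR adjusted p = 0.933). The difference between the Bu effects in siTGR5 and siGFP cells was itself called for Upf1, at 0.23 ± 0.05 (SE) (edgeR adjusted p = 0.0137). Upf1 was the 1 member called of 33, against 1.37% of all 14783 genes tested for that difference (0.724% higher and 0.649% lower). Without the libraries that held rod transcripts, the difference for Upf1 was 0.24 (edgeR adjusted p = 0.141), and no member was called, against 47 of all 14987 genes. The Upf1 fall in siGFP cells without those libraries stood at 0.24 on the log2 scale (edgeR adjusted p = 0.00326). Upf2, which bridges UPF1 to the junction complex, rose with Bu in siTGR5 cells (0.14 ± 0.05 (SE), edgeR adjusted p = 0.0263) and had 0.05 ± 0.06 (SE) in siGFP cells (edgeR adjusted p = 0.529). The Upf2 call was lost without siTGR5 DMSO replicate 1, 2 or 4 or siTGR5 Bu replicate 2, 3 or 4 (edgeR adjusted p = 0.0541 to 0.0944), and without the libraries with rod transcripts (0.17, edgeR adjusted p = 0.0871). Upf3a and Upf3b, the paralogues that contact the junction complex, had log2 fold changes between 0.05 and 0.09 in both comparisons, and none was called.

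The SMG factors include the kinase that phosphorylates UPF1 and its regulators. Smg8, whose protein binds and restrains the SMG1 kinase, was at 62.6, 64.1, 60.8, 63.9 and 61.5 CPM in siGFP DMSO and at 73.1, 69.4, 70.8 and 72.6 CPM in siGFP Bu. All Bu libraries lay above all DMSO libraries, and Smg8 rose by 0.21 ± 0.04 (SE) (edgeR adjusted p = 0.000737). In siTGR5 cells it went from 61.6, 58.2, 61.6, 60.2 and 57.1 CPM to 65.2, 66.0, 72.7 and 69.6 CPM, again without overlap, and rose by 0.20 ± 0.04 (SE) (edgeR adjusted p = 0.000716). The difference between the effects was 0.00 ± 0.05 (SE) (edgeR adjusted p = 0.991). Smg9, the partner of SMG8 in that complex, was not called in either (0.09 and 0.02). Smg1, the kinase itself, had -0.12 ± 0.08 (SE) in siGFP cells (edgeR adjusted p = 0.317) and -0.07 ± 0.03 (SE) in siTGR5 cells (edgeR adjusted p = 0.0805). Smg5, an adaptor that binds phosphorylated UPF1, rose by 0.12 ± 0.03 (SE) in siTGR5 cells (edgeR adjusted p = 0.0159) and had 0.06 ± 0.04 (SE) in siGFP cells (edgeR adjusted p = 0.211). Smg6, the endonuclease that cuts the targeted mRNA, had -0.03 and 0.00. The Smg5 call was lost without siTGR5 DMSO replicate 4 or siTGR5 Bu replicate 3 or 4 (values of 0.09 to 0.10), and without the libraries with rod transcripts (0.13, edgeR adjusted p = 0.0744).

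Of the 5 exon junction genes, 3 were called higher and none lower in siGFP cells, against 14.3% higher and 13.8% lower over all genes. Without the libraries that held rod transcripts, 1 (Magoh) was called higher, against 1474 of all 14425 genes. Magoh, which forms a stable pair with RBM8A, was at 47.7, 46.1, 51.7, 50.8 and 53.5 CPM in siGFP DMSO and at 58.4, 63.9, 62.3 and 58.8 CPM in siGFP Bu. No libraries overlapped, and Magoh rose by 0.30 ± 0.05 (SE) (edgeR adjusted p = 0.000472). In siTGR5 cells Magoh was at 41.5, 44.5, 49.6, 46.8 and 42.9 CPM with DMSO and 50.4, 53.8, 51.5 and 48.0 CPM with Bu, with overlap, and rose by 0.19 ± 0.05 (SE) (edgeR adjusted p = 0.00877; without the libraries with rod transcripts 0.19, edgeR adjusted p = 0.0747). Rbm8a, its partner in that pair, was at 42.1, 43.5, 45.0, 45.0 and 44.2 CPM in siGFP DMSO and at 48.4, 51.9, 47.9 and 45.0 CPM in siGFP Bu. The groups overlapped only at 45.0 CPM, and Rbm8a rose by 0.15 ± 0.05 (SE) (edgeR adjusted p = 0.0228). In siTGR5 cells Rbm8a had 38.4, 40.9, 42.2, 40.8 and 37.8 CPM with DMSO and 43.7, 44.2, 41.7 and 39.9 CPM with Bu, and 0.09 ± 0.04 (SE) (edgeR adjusted p = 0.116).

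Eif4a3 was at 107, 109.6, 117, 110.4 and 108 CPM in siGFP DMSO and at 113, 123, 119 and 117 CPM in siGFP Bu. The groups overlapped, and the fold change of 0.11 ± 0.04 (SE) lay just inside the threshold (edgeR adjusted p = 0.0482). In siTGR5 cells Eif4a3 had 104, 113, 111, 105 and 108 CPM with DMSO, 117, 115, 113 and 111 CPM with Bu, and a change just outside the threshold (0.09 ± 0.03 (SE), edgeR adjusted p = 0.0537). Casc3, the fourth core protein, was not called in siGFP (0.01) or siTGR5 cells (0.09). Magohb, whose protein is nearly identical to that of Magoh, had 0.15 and 0.15 without a call, and 30.2% of its exon bases are shared with the pseudogene Gm44958 on the same strand, so its reads are uncertain. The Eif4a3 and Rbm8a calls in siGFP cells were lost without the libraries that held rod transcripts (0.06, edgeR adjusted p = 0.405, and 0.13, edgeR adjusted p = 0.0922), whereas Magoh kept a rise of 0.29 (edgeR adjusted p = 0.00418). Rbm8a also lost its call without siGFP DMSO replicate 1 or siGFP Bu replicate 2, and Eif4a3 without siGFP DMSO replicate 1, 2, 4 or 5 or siGFP Bu replicate 2, 3 or 4 (0.09 to 0.12, edgeR adjusted p = 0.0667 to 0.139).

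**Figure D2:**
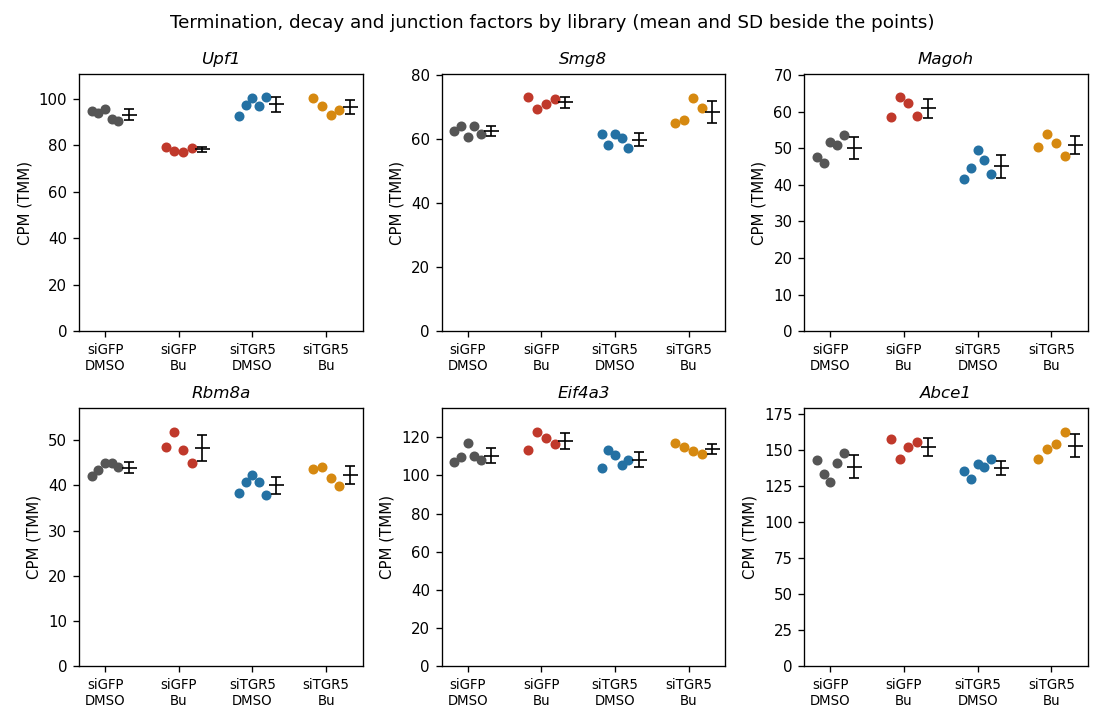
Level in CPM (vertical axis, TMM-normalised, from 0) of 6 termination, decay and junction genes in each library of the 4 groups, with the mean and SD beside the points. Upf1 sits at 77.3 to 79.4 in the 4 siGFP Bu libraries and at 90.4 or more in all others, while Smg8 is higher with Bu in both cell groups.

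Of the 15 noncoding snoRNA hosts, 14 were tested, and with Bu in siGFP cells 3 were called higher and 3 lower, against 14.3% higher and 13.8% lower over all genes. Without the libraries that held rod transcripts 1 was higher (Snhg5) and 3 were lower, against 1474 higher and 1487 lower of all 14425 genes. The 3 lower were Snhg17, Snhg18 and Snhg20. Snhg17, host of 3 annotated snoRNAs, was at 16.7, 18.8, 17.7, 16.3 and 20.4 CPM in siGFP DMSO and at 10.3, 12.9, 10.0 and 13.7 CPM in siGFP Bu. All Bu libraries were below all DMSO libraries, and Snhg17 fell by 0.60 on the log2 scale (SE 0.10, edgeR adjusted p = 0.00036), the largest change of any member in that comparison. In siTGR5 cells Snhg17 went from 19.9, 21.6, 18.7, 18.5 and 25.1 CPM to 17.0, 13.0, 14.6 and 18.8 CPM, with 1 Bu library inside the DMSO range, and fell by 0.37 (SE 0.10, edgeR adjusted p = 0.00999). The difference between the 2 effects on Snhg17 was 0.23 ± 0.16 (SE) (edgeR adjusted p = 0.557).

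Snhg18, the host of Snord123, was at 66.6, 64.8, 75.1, 73.6 and 69.8 CPM in siGFP DMSO and at 58.4, 60.6, 57.2 and 56.2 CPM in siGFP Bu. It was at 66.3, 67.1, 70.5, 69.3 and 62.6 CPM in siTGR5 DMSO and at 61.7, 57.4, 56.7 and 54.0 CPM in siTGR5 Bu. The groups did not overlap in either cell group, and the falls were 0.25 (SE 0.05, edgeR adjusted p = 0.00132) and 0.21 (SE 0.04, edgeR adjusted p = 0.00102). Snhg20 was at 10.8, 10.9, 13.2, 10.7 and 11.2 CPM in siGFP DMSO and at 6.29, 10.8, 8.50 and 9.36 CPM in siGFP Bu. With 1 Bu library inside the DMSO range it fell by 0.37 (SE 0.12, edgeR adjusted p = 0.0327), and it fell by 0.28 in siTGR5 cells (SE 0.09, edgeR adjusted p = 0.025), where the libraries had 9.66, 11.6, 11.5, 10.2 and 13.3 CPM with DMSO and 10.1, 8.66, 8.34 and 9.62 CPM with Bu. Without siGFP Bu replicate 1, the lowest library, the Snhg20 fall was 0.23 (edgeR adjusted p = 0.0865), and without the libraries that held rod transcripts it was 0.66 (edgeR adjusted p = 0.0048). Its call was also lost without siGFP DMSO replicate 2 or 3 or siGFP Bu replicate 3, and in siTGR5 cells without Bu replicate 2 or 3 or those with rod transcripts. Without the latter the falls in siTGR5 cells were 0.32 for Snhg20 (edgeR adjusted p = 0.074) and 0.40 for Snhg17 (edgeR adjusted p = 0.0538), both at least as large as with all libraries.

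The hosts higher with Bu in siGFP cells were Snhg5, Snhg8 and Epb41l4aos. Snhg5, a short host of the Snord50 pair, was at 14.1, 14.3, 13.5, 13.3 and 15.6 CPM in siGFP DMSO and at 16.2, 16.5, 17.0 and 16.8 CPM in siGFP Bu. The groups did not overlap, and Snhg5 rose by 0.24 ± 0.06 (SE) (edgeR adjusted p = 0.0067). In siTGR5 cells it went from 12.8, 13.2, 12.4, 12.2 and 13.5 CPM to 16.8, 16.5, 14.4 and 17.1 CPM, also without overlap, and rose by 0.35 ± 0.06 (SE) (edgeR adjusted p = 0.00024). Snhg8, the host of Snora24, was at 19.5, 21.1, 25.4, 25.9 and 22.7 CPM in siGFP DMSO and at 25.1, 25.9, 25.8 and 28.3 CPM in siGFP Bu. The groups overlapped, and the rise of 0.22 ± 0.08 (SE) (edgeR adjusted p = 0.0452) was lost without siGFP DMSO replicate 1, 2 or 5 or siGFP Bu replicate 2, 3 or 4 (edgeR adjusted p = 0.0643 to 0.129) and without the libraries that held rod transcripts (0.09, edgeR adjusted p = 0.494).

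Epb41l4aos, an RNA transcribed beside the gene Epb41l4a, was at 2.42, 2.83, 3.03, 2.91 and 2.08 CPM in siGFP DMSO and at 2.74, 5.12, 3.39 and 3.88 CPM in siGFP Bu. One Bu library (replicate 2) stood well above the rest, and the rise of 0.53 ± 0.17 (SE) (edgeR adjusted p = 0.0266) became 0.35 without it (edgeR adjusted p = 0.104) and 0.06 without the libraries that held rod transcripts (edgeR adjusted p = 0.811). The call was also lost without siGFP DMSO replicate 1 or 5 or siGFP Bu replicate 4. In siTGR5 cells the Epb41l4aos libraries had 1.80, 2.21, 1.98, 2.30 and 1.86 CPM with DMSO and 2.51, 1.58, 1.32 and 1.23 CPM with Bu, and the value was -0.25 ± 0.19 (SE) (edgeR adjusted p = 0.343). The difference between these effects was -0.78 ± 0.27 (SE) (edgeR adjusted p = 0.169). Without siTGR5 Bu replicate 1, the highest of its group, the siTGR5 value was -0.55 (edgeR adjusted p = 0.0177) and the difference -1.08 (edgeR adjusted p = 0.0264), both called. That replicate also held rod transcripts. Without all libraries that held them, the siTGR5 value was -0.49 (edgeR adjusted p = 0.104) and the difference -0.55 (edgeR adjusted p = 0.442), neither called.

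A further 3 hosts were called higher in siTGR5 cells and not in siGFP cells. Snhg1, in which 8 snoRNAs are annotated, was at 50.3, 52.2, 52.9, 53.9 and 56.5 CPM with DMSO and at 67.2, 64.5, 63.6 and 63.3 CPM with Bu, and rose by 0.30 ± 0.04 (SE) (edgeR adjusted p = 1.45e-05). Its value in siGFP cells was 0.17 ± 0.06 (SE) (edgeR adjusted p = 0.0578), and the difference was 0.13 (edgeR adjusted p = 0.489). Snhg12 and Snhg15 rose by 0.34 and 0.31 (edgeR adjusted p = 0.00309 and 0.00475), against 0.16 and 0.28 in siGFP cells (edgeR adjusted p = 0.156 and 0.0559), with differences of 0.17 and 0.03 (edgeR adjusted p = 0.561 and 0.958). Without the libraries with rod transcripts the Snhg12 value in siTGR5 cells was 0.24 (edgeR adjusted p = 0.123). The remaining 5 tested hosts, Gas5, Dancr, Snhg3, Snhg4 and Snhg6, were called in neither, with log2 fold changes from -0.19 to 0.15. A list of 26 transcripts described as retained in the nucleus moved with Bu as well. It joins noncoding RNAs such as Malat1 and Neat1 with protein-coding genes such as Clk1. The list was chosen with earlier results of these data known, so its counts are no independent test. Of its 22 tested genes, 19 were lower in siGFP cells, against 13.8% of all genes. Its summed level ran from 4287 to 4617 CPM in siGFP DMSO and from 3046 to 3719 CPM in siGFP Bu. In siTGR5 cells 12 of the 22 were lower and 1 higher, against 15.2% lower and 15.5% higher over all genes. Its sums there ran from 4416 to 5888 CPM in siTGR5 DMSO and from 3804 to 4332 CPM in siTGR5 Bu. Its part in the noncoding host values was not tested. For Snhg1, Snhg8, Snhg12 and Dancr the annotated exons merge into 1 block over the whole gene, so spliced and unspliced RNA were counted together. In Gas5, Snhg5, Snhg15 and Snhg17 every annotated snoRNA overlaps an annotated exon, as does the annotated small RNA of Snhg20. Unspliced RNA could therefore be counted for these hosts too.

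The snoRNAs of Snhg5, Snhg18 and Snhg8 are shown because these hosts carried called Bu effects, and because poly(A) libraries measure the host RNA and not these short products. They are read from GENCODE M21 transcripts on GRCm38, 5′ to 3′, with the C box (tgatga) and D box (ctga) of the guides of ribose methylation, or the ACA box of the guide of pseudouridylation, in capitals. Snord50a (chr9:88521529-88521600) and Snord50b (chr9:88521797-88521868) lie on the minus strand in Snhg5, each of 72 bases. They differ by C50A, counted from 1 at the 5′ end of Snord50a. Snord123 (chr15:32241853-32241923, minus strand) lies in Snhg18, and Snora24 (chr3:123507937-123508066, minus strand) in Snhg8.
Snord50a: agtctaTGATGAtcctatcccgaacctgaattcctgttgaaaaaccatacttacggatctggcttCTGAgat
Snord50b: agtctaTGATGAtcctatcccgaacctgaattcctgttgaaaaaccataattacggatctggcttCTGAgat
Snord123: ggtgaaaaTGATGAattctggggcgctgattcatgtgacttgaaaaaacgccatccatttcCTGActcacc
Snora24: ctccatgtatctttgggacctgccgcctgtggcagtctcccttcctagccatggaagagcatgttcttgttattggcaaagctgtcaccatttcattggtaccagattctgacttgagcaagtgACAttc

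Many snoRNA hosts are known to begin in a pyrimidine tract, as do mRNAs of ribosomal proteins. Windows from 40 bases before to 20 bases after the RefSeq start (GRCm38.p6, strand of the gene) are shown for 7 hosts that were lower with siTGR5 in DMSO or rose with Bu, Epb41l4aos being named only. A script searched the 20 bases on each side of the start, on the gene strand only, for the motif CTTTT, the motif CTTTC, the motif CTTCC or the motif CCTTT, which can overlap each other, and matches are in capitals.
Gas5, second start (chr1:161035126-161035185, plus strand): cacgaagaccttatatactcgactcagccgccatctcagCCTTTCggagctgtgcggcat
Snhg1 (chr19:8723447-8723506, plus strand): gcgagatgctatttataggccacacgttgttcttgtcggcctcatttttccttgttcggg
Snhg3 (chr4:132353667-132353726, minus strand): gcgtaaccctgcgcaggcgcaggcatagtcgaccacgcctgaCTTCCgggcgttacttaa
Snhg5 (chr9:88522878-88522937, minus strand): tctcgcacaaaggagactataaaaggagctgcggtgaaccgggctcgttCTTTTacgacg
Snhg8 (chr3:123508317-123508376, minus strand): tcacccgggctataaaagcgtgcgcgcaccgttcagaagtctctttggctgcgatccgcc
Snhg12 (chr4:132308638-132308697, plus strand): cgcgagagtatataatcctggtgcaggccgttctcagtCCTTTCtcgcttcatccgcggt
Snhg15 (chr11:6528741-6528800, minus strand): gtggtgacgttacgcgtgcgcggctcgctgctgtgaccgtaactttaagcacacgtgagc
A match anywhere in the searched bases, before or after the start, was present for 6 of the 12 noncoding hosts in the promoter table. The same held for 7 of the 27 members in it and for 5760 of all 27025 genes (21.3%). Genes with several starts counted once if any start matched, and the other starts of Gas5 and Snhg17 had no match. The matching hosts whose windows are not shown were Snhg17 and Snhg18, both lower with Bu. Counted from 0 at the first transcribed base, their matches began at -18 and -13, before the start and so outside the RNA. The other matches began at -1 and 0 in Gas5, -2 and -1 in Snhg12, 2 in Snhg3 and 9 in Snhg5. The counts of matches are therefore not counts of RNAs that begin in a tract. Snhg1, Snhg8 and Snhg15 had no match to these motifs, and Gas5, Snhg3, Snhg5 and Snhg12 had 1 or 2. Other runs of c and t near the start, such as those in the Snhg1 and Snhg8 windows, did not count as matches. A host without a match can therefore still have a pyrimidine tract.

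To see how siTGR5 changed the same genes without the drug, siTGR5 DMSO was compared with siGFP DMSO. This comparison shares its DMSO libraries with the 2 comparisons of Bu. Among the noncoding hosts 6 were lower with siTGR5, and of the protein-coding members Hbs1l and Smg5 were higher. Of 33 members, 2 were called higher and 8 lower, against 28.3% of all 14292 genes tested (13.8% higher and 14.4% lower). The groups did not overlap for 3 members, against 18.8% of all genes. The members' median log2 fold change was -0.06, against 0.00 over all genes. The 6 lower of the 14 tested noncoding hosts were Gas5, Epb41l4aos, Snhg1, Snhg3, Snhg8 and Snhg12, and the nuclear-retained list had 5 of 22 genes higher and none lower, whose part was not tested. Without the libraries that held rod transcripts, 1 member was higher and 8 were lower, of which 7 were among the earlier 8. Of all 14456 genes tested there, 1446 were higher and 1700 lower. Magoh lost its call and Upf3a gained one (-0.20, edgeR adjusted p = 0.0401), against -0.14 with all libraries (edgeR adjusted p = 0.084), and Smg5 lost its call among the higher genes.

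Snhg8 stood at 19.5, 21.1, 25.4, 25.9 and 22.7 CPM in siGFP DMSO and at 14.0, 15.7, 20.3, 16.7 and 17.1 CPM in siTGR5 DMSO. Only 1 siTGR5 library reached the siGFP range, and Snhg8 fell by 0.44 on the log2 scale (SE 0.09, edgeR adjusted p = 0.0015). Snhg12, in which 5 snoRNAs are annotated, was at 9.83, 9.54, 10.0, 11.5 and 10.6 CPM in siGFP DMSO and at 7.34, 7.92, 9.19, 7.36 and 8.64 CPM in siTGR5 DMSO. Every siTGR5 library was below every siGFP library, and the fall was 0.34 (SE 0.07, edgeR adjusted p = 0.0026), with an exact permutation p = 0.00794, the smallest that 5 against 5 allows. That permutation value restates the lack of overlap, which 18.8% of all genes showed in this comparison.

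Snhg3, host of the Snora73 pair, was at 21.8, 20.4, 25.4, 23.9 and 21.7 CPM in siGFP DMSO and at 15.2, 17.9, 20.7, 17.3 and 18.2 CPM in siTGR5 DMSO. It fell by 0.34 (SE 0.07, edgeR adjusted p = 0.0023), with 1 siTGR5 library inside the siGFP range. Of the exon bases of Snhg3, 13.7% are also exon of Rcc1 on the same strand and 71.5% exon of Gm17300 on the opposite strand, and the strand setting of the counting is not given in the sources used here. Snhg1 fell by 0.19 (SE 0.05, edgeR adjusted p = 0.0084) and Gas5, a growth-arrest RNA long known as an NMD target, by 0.21 (SE 0.06, edgeR adjusted p = 0.0127). Gas5 was at 32.6, 34.4, 36.0, 38.2 and 36.9 CPM in siGFP DMSO and at 28.0, 28.3, 33.2, 29.7 and 34.5 CPM in siTGR5 DMSO, with overlap. Epb41l4aos fell by 0.38 (SE 0.12, edgeR adjusted p = 0.0311), a call lost without siGFP DMSO replicate 2, 3 or 4 or siTGR5 DMSO replicate 1, 3 or 5 (edgeR adjusted p = 0.0637 to 0.0755).

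Among protein-coding members, Hbs1l was at 83.6, 80.3, 79.5, 77.6 and 85.7 CPM in siGFP DMSO and at 90.6, 88.2, 87.3, 94.7 and 89.0 CPM in siTGR5 DMSO. All siTGR5 libraries were above all siGFP libraries, and Hbs1l rose by 0.14 ± 0.03 (SE) (edgeR adjusted p = 0.00527). Smg5 rose by 0.11 ± 0.03 (SE) (edgeR adjusted p = 0.018), a call lost without siTGR5 DMSO replicate 5 and without the libraries with rod transcripts (0.10, edgeR adjusted p = 0.0754). The Magoh and Rbm8a mRNAs were lower with siTGR5, by 0.15 and 0.13 (edgeR adjusted p = 0.0335 and 0.0143). The Magoh call was lost without siGFP DMSO replicate 3, 4 or 5 or siTGR5 DMSO replicate 1, 2 or 5 (edgeR adjusted p = 0.0567 to 0.0843), and without the libraries with rod transcripts, where the fall was 0.16 (edgeR adjusted p = 0.0783).

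**Figure D3:**
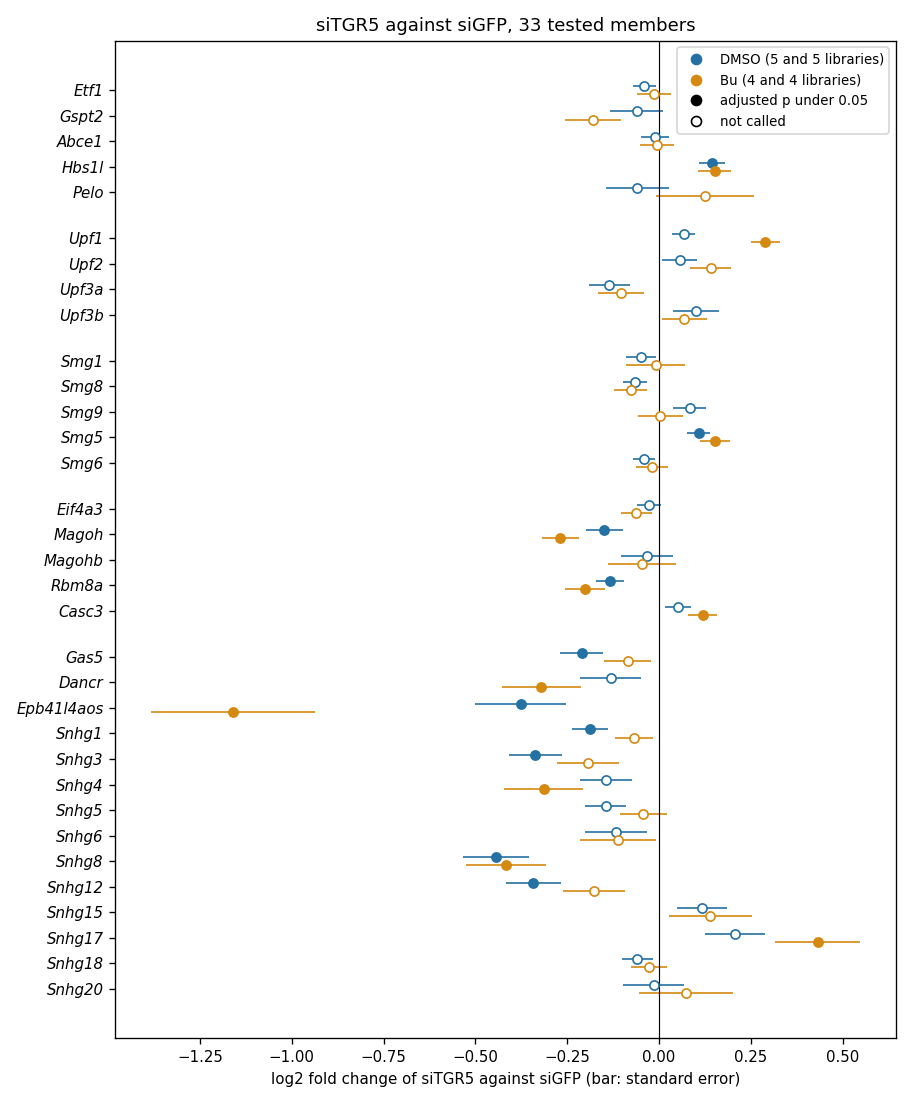
Log2 fold change of siTGR5 against siGFP (horizontal axis, bars are standard errors) for the 33 tested members in DMSO (blue) and under Bu (orange). Filled points passed an adjusted p of 0.05, and Snhg8 lies at -0.44 in DMSO and -0.42 under Bu while Epb41l4aos reaches -1.16 under Bu.

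The same comparison was then made with Bu in both groups, 4 libraries against 4, for which an exact permutation test cannot go below p = 0.0286. Here 5 members were called higher and 6 lower, against 30.3% of all 13971 genes tested (13.8% higher and 16.5% lower), and 10 did not overlap, against 30.0% of all genes. This comparison shares its Bu libraries with the 2 comparisons of Bu. Upf1 was higher in siTGR5 Bu by 0.29 ± 0.04 (SE) (edgeR adjusted p = 8.89e-05), with the libraries at 101, 96.8, 93.1 and 95.4 CPM against 79.4, 77.4, 77.3 and 79.1 CPM and no overlap. Magoh and Rbm8a were lower by 0.27 and 0.20 (edgeR adjusted p = 0.000998 and 0.0111). Hbs1l, Smg5 and Casc3 were higher by 0.15, 0.15 and 0.12 (edgeR adjusted p = 0.0195, 0.0111 and 0.0337). Among the hosts, Epb41l4aos was lower by 1.16 (SE 0.22, edgeR adjusted p = 0.0013), Snhg8 by 0.42 (edgeR adjusted p = 0.00963), and Dancr and Snhg4 by 0.32 and 0.31 (edgeR adjusted p = 0.0348 and 0.0386), while Snhg17 was higher by 0.43 (edgeR adjusted p = 0.0107). The Casc3 call was lost without siGFP Bu replicate 4 or any 1 siTGR5 Bu library (edgeR adjusted p = 0.0571 to 0.0829). The Dancr call was lost without siGFP Bu replicate 2 or 3 or siTGR5 Bu replicate 2, 3 or 4, and that of Snhg4 without the same libraries or siGFP Bu replicate 4 (edgeR adjusted p = 0.0558 to 0.122 over both). The Hbs1l call was lost without siTGR5 Bu replicate 3 or 4 (0.14 and 0.13). Without the libraries that held rod transcripts, 3 members were higher and 2 lower, all 5 among the 11, and Upf1 stood at 0.29 (edgeR adjusted p = 0.00341). Of all 14049 genes tested there, 1191 were higher and 1375 lower. Those that lost the call were Hbs1l (0.15), Casc3 (0.07), Rbm8a (-0.21), Dancr (-0.39), Snhg4 (-0.28) and Snhg8 (-0.43), with edgeR adjusted p = 0.0548 to 0.372. The values of Hbs1l, Rbm8a, Dancr and Snhg8 were close to or larger in size than those with all libraries, and that of Casc3 was smaller. The nuclear-retained list had 19 of 22 genes higher in siTGR5 Bu than in siGFP Bu, and its part in these values was not tested.

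**Figure D4:**
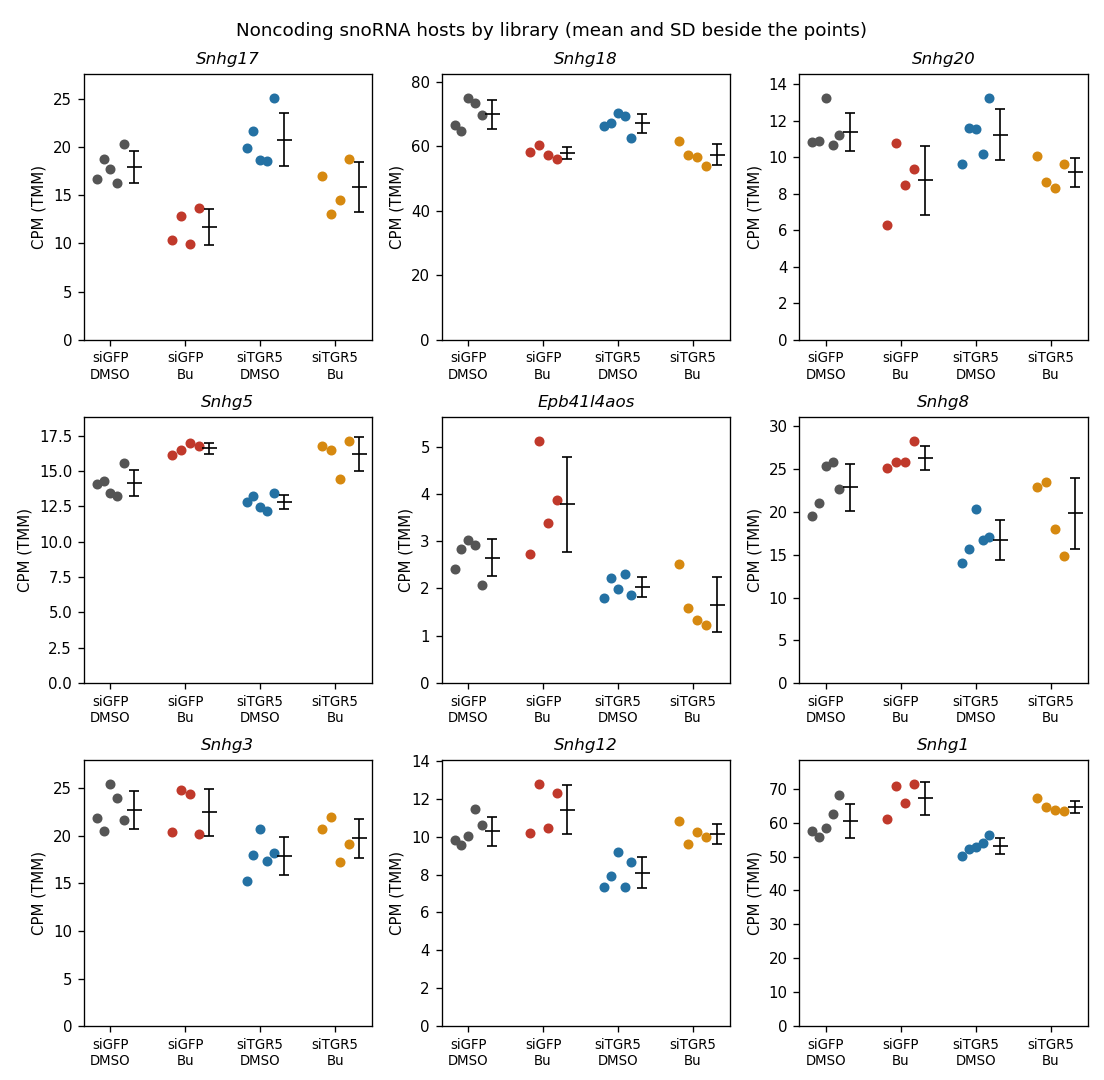
Level in CPM (vertical axis, TMM-normalised, from 0) of 9 noncoding snoRNA hosts in each library of the 4 groups, with the mean and SD beside the points. Snhg17 and Snhg18 are lower with Bu in both cell groups, while Snhg8, Snhg3, Snhg12 and Snhg1 are lower in siTGR5 DMSO than in siGFP DMSO.

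Other genes of the same processes, taken from lists chosen with earlier results of these data known, gave the following counts, in comparisons that share libraries. Over all genes the shares called were 28.1% with Bu in siGFP cells (14.3% higher and 13.8% lower), 30.7% with Bu in siTGR5 cells (15.5% higher and 15.2% lower) and 28.3% with siTGR5 in DMSO (13.8% higher and 14.4% lower). Of 17 proteins that build or serve snoRNA particles, 7 were higher and none lower with Bu in siGFP cells, 6 higher and none lower with Bu in siTGR5 cells, and none higher and 6 lower with siTGR5 in DMSO. Their median log2 fold changes were 0.14, 0.09 and -0.08. Nop58, a core protein of the methylation particles, had 0.21, 0.21 and -0.18 in the 3 comparisons (edgeR adjusted p = 0.00466, 0.000164 and 0.00237). Of 24 protein-coding snoRNA hosts, most of them genes of ribosomal proteins and elongation factors, 10 were higher and 2 lower with Bu in siGFP cells, 9 higher and 1 lower with Bu in siTGR5 cells, and none higher and 13 lower with siTGR5 in DMSO. Rps20 had 0.40, 0.12 and -0.35 (edgeR adjusted p = 2.08e-05, 0.0155 and 5.51e-07). The 14 tested noncoding hosts gave 3 higher and 3 lower, 4 higher and 3 lower, and none higher and 6 lower in the same order.

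Of 23 other genes of NMD and the junction complex, 5 were higher and 5 lower with Bu in siGFP cells, and 9 higher and 2 lower in siTGR5 cells, against the 28.1% and 30.7% of all genes. The phosphatase subunit Ppp2ca rose by 0.21 (edgeR adjusted p = 0.000573) and the decapping partner Pnrc2 by 0.22 (edgeR adjusted p = 0.0015) in siGFP cells. Of 18 other rescue and recycling genes, 2 were higher and 3 lower in siGFP cells, a share near that of all genes, among them the GTPase gene Gtpbp2, which fell by 0.34 (edgeR adjusted p = 0.000355). Of 9 mRNAs known as NMD targets, 4 were higher and 2 lower with Bu in siGFP cells and 4 higher and none lower in siTGR5 cells. Among them Gadd45b, a stress gene, rose by 0.41 in siGFP cells (edgeR adjusted p = 0.000434) and by 0.57 in siTGR5 cells (edgeR adjusted p = 1.42e-06). The difference between the 2 was 0.16 (edgeR adjusted p = 0.493).

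**Figure D5:**
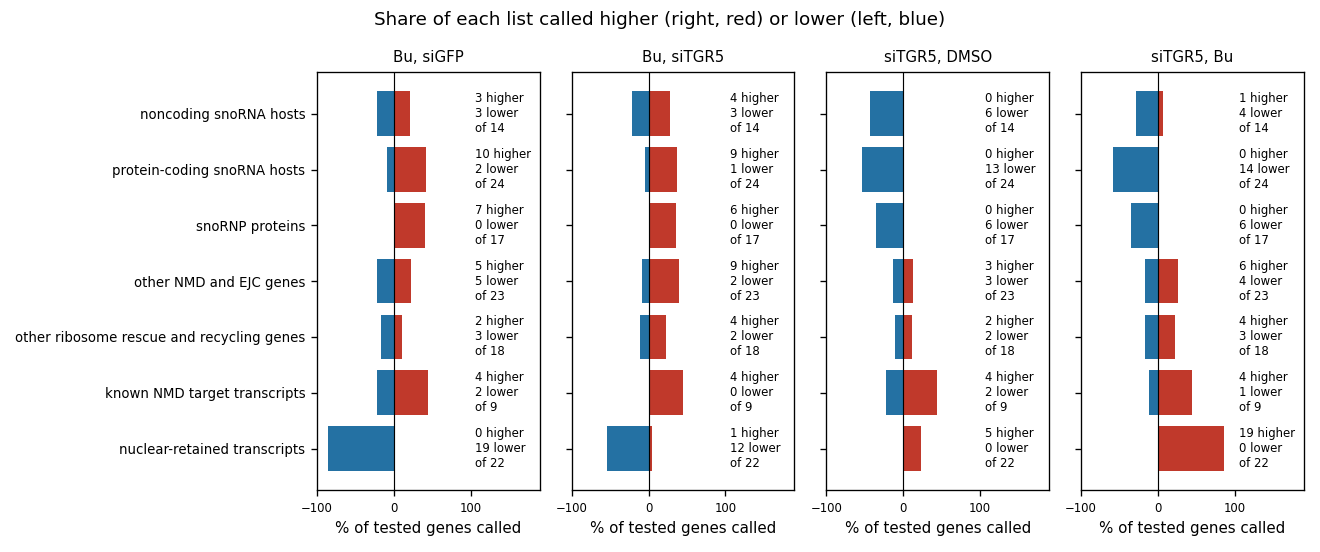
Share of the tested genes of each list called higher (red, right of 0) or lower (blue, left of 0) in 4 comparisons, with the counts printed beside each bar. The protein-coding hosts and snoRNA particle proteins have 10 of 24 and 7 of 17 genes higher with Bu in siGFP cells and 13 of 24 and 6 of 17 lower with siTGR5 in DMSO.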

How the data were processed

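Poly(A) RNA of GC1spg cells was sequenced in 18 libraries with a stranded kit. According to the methods of the study, reads were mapped to mm10 with Hisat2, uniquely aligned reads were kept and HTSeq counted them per Ensembl gene, whereas the submitters' processing notes name TopHat2, DESeq2 1.0.19 and Bowtie2 2.1.0. Raw read counts per gene were deposited by the authors, with normalised values in 36 further per-sample columns and 9 columns of their own fold changes and p-values, which were not used here. No row lacked a gene name.

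Tests of the counts ran in edgeR 4.0.16 under R 4.3.3 (TMM, quasi-likelihood F-test, filterByExpr with a minimum count of 10 and a minimum total of 15). P-values were adjusted by Benjamini-Hochberg over all genes, with calls at an adjusted p under 0.05. Each comparison was fitted on its own groups, and the difference of Bu effects on all 18 libraries. Fits were checked on simulated counts. Exact two-sided permutation tests used log2(CPM + 0.5). Exon lengths, overlaps and snoRNAs came from GENCODE M21 (GRCm38), where 33 of the 34 member identifiers were found and 32 had the coordinates of the table. Promoters came from RefSeq (GRCm38.p6). Alternatives were RLE size factors, no filter, a mean of at least 1 CPM, DESeq2 1.42.0, a replicate block, all 18 libraries in 1 fit, and omission of each library. No 2 libraries of a group agreed within sampling noise. Figures were drawn with matplotlib 3.10.9.

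The members and lists were chosen with earlier results of these data known. Library values are given for up to 5 called members per role with the smallest p in siGFP cells, for the member called in the difference, and for up to 4 called members in the DMSO comparison; Snhg1 and Gas5 were added after their values were seen. Other genes are named from the lists only.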

Additional observations from a re-analysis of the deposited data

Results flagged for a closer look

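Among 136 member and group combinations, 5 had a library whose gap to the nearest other library was large against the range of its group (above Dixon's critical value at the 95% level, which chance passes in about 1 of 20 groups). Smg1 was at 192 CPM in siTGR5 Bu replicate 4, against 182 to 183 CPM in the others. Smg5 was at 98.9 CPM in siGFP DMSO replicate 5, against 105 to 107 CPM. Dancr was at 6.58 CPM in siGFP DMSO replicate 4, against 7.58 to 7.83 CPM. Snhg20 was at 13.2 CPM in siGFP DMSO replicate 3, against 10.7 to 11.2 CPM. Snhg14 was at 0.0286 CPM in siTGR5 Bu replicate 4 and at 0 in the others. The effect of Bu on Upf1 differed between siTGR5 and siGFP cells, by 0.23 on the log2 scale.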

How the results depend on the processing

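Of 165 member values (33 members in 5 comparisons), 47 were called, and none of these changed sign under any alternative, while 42 values that were not called did (largest size 0.11). A call was lost under at least 1 alternative for 22 of the 47, and 18 other values gained one. Leaving out single libraries moved the members called higher with Bu from 4 to 8 in siGFP cells and from 8 to 12 in siTGR5 cells, and those called lower from 3 to 4 and from 2 to 5. The same omissions gave 1 to 1 higher and 0 to 1 lower for the difference, 1 to 4 higher and 6 to 8 lower for siTGR5 in DMSO, and 3 to 6 higher and 4 to 6 lower for siTGR5 under Bu. The number of all genes called moved as well. It ran from 3156 to 4109 with Bu in siGFP cells, from 3378 to 4513 in siTGR5 cells and from 87 to 270 for the difference. For siTGR5 it ran from 3407 to 4366 in DMSO and from 3125 to 4128 under Bu. Without the libraries that held rod transcripts, chosen after seeing the data, the members called higher were 4, 6, 0, 1 and 3 in the order Bu in siGFP cells, Bu in siTGR5 cells, their difference, siTGR5 in DMSO and siTGR5 under Bu, those called lower were 1 for Bu in siTGR5 cells and 2 for siTGR5 under Bu, and the causes were not tested. In the same order, 2961, 2660, 47, 3146 and 2566 of all genes were called without those libraries. With all libraries these were 4023, 4409, 203, 4039 and 4231. With no filter on low counts 1 member, Epb41l4aos, was lower in the difference (-0.77, edgeR adjusted p = 0.0127, against -0.78 and 0.169), where more genes were tested. For that difference, 411 genes of all were called with no filter and 402 by DESeq2, against 203 in the fit described, and the cause was not tested. The call of Eif4a3 in siGFP cells was lost with RLE size factors, no filter, a mean of at least 1 CPM and the replicate block (edgeR adjusted p = 0.0574, 0.103, 0.0634 and 0.0644), and that of Snhg8 with a mean of at least 1 CPM and with all 18 libraries in 1 fit (0.0532 and 0.147). That of Snhg20 in siTGR5 cells was lost with the replicate block (-0.21, edgeR adjusted p = 0.0919) and with all 18 libraries in 1 fit (-0.28, edgeR adjusted p = 0.0751). The 18-library fit also ended the calls of Upf2 with Bu in siTGR5 cells and of Epb41l4aos with siTGR5 in DMSO (edgeR adjusted p = 0.0574 and 0.118), and no filter that of Casc3 under Bu (edgeR adjusted p = 0.0879). The replicate block ended no other call of a member. The replicate numbers of the labels were not taken as pairs, since the deviations of same-numbered libraries correlated at -0.253 to 0.154 and 1 of 17 correlated best with its own number. With the replicate block, 10 members were higher and 4 lower with Bu in siGFP cells, 12 and 2 in siTGR5 cells, 1 and 0 in the difference, 3 and 9 for siTGR5 in DMSO and 5 and 6 under Bu. Of all genes, 4314, 4066, 265, 4493 and 4225 were called with the block in the same order. The libraries held few reads of Gpbar1 and Snhg14. Snhg14 did not pass the filter. The values of Gpbar1 were imprecise at this depth, with standard errors of 0.278 to 0.466. Its fall with siTGR5 in DMSO was called all the same (-0.99, edgeR adjusted p = 0.0135).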
